A study of Mus musculus with 8 samples.

Results

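The oligodendrocyte lineage and myelin genes described here were 9 genes chosen by name: the precursor genes Pdgfra and Cspg4, the lineage factors Olig1, Olig2 and Sox10, and the myelin genes Mbp, Cnp, Mag and Cldn11. They were 9 of the 18193 genes on the array and had 23 of its 45037 probe-sets, counting every probe-set whose only gene symbol was 1 of the 9. A filter on the mean log2 signal over the 8 arrays (at least 4.95, a signal of 31.0) kept 18015 probe-sets of 10194 genes for testing, among them 15 probe-sets of 6 of the 9 genes. Olig2, Sox10 and Mag had no probe-set above the filter and were not tested.

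The study asked which genes thyroid hormone (T3) regulates in cerebellar neurons and their precursors. Primary cultures were prepared from the pooled cerebella of wild-type mouse pups, of P4-P7 by the sample labels and younger by the methods. They were kept for 48 h in serum-free medium, which was meant to spare neurons at the expense of glia, and then received 0.1 µM T3 or were left untreated for 6, 16, 24 or 48 h. RNA of each of the 8 cultures was hybridised to 1 Affymetrix array, so each condition had 1 array, and the T3 and untreated cultures of a time point came from the same cell batch. Every culture was thus wild-type, passed through the same medium changes and was meant to differ from its partner by T3 alone, whereas time in culture and cell batch cannot be told apart. The signal is a brightness per probe-set on a linear scale, and signals of different probe-sets are not set against each other. A sum over a marker list adds such signals, so its brightest genes weigh most. The median signal was 14.8 to 17.7 over the 8 arrays.

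Oligodendrocytes wrap axons of the central nervous system in myelin. They arise from dividing precursors that carry the growth factor receptor Pdgfra and the proteoglycan Cspg4 (NG2), under the transcription factors Olig1, Olig2 and Sox10, and then switch on myelin genes such as Mbp. Thyroid hormone is a classic timer of that switch. Several of the 9 genes are not restricted to the lineage: Pdgfra is also made by fibroblasts, Cspg4 by pericytes, the contractile cells of capillaries, and Cldn11, a tight junction protein of myelin, by cells of the meninges.

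The 250 bases before the transcription start of Cnp and Cldn11 are given because these myelin genes took different courses over the arrays, as their signals show. Capitals mark ACAAAG, a core to which SOX-family factors such as Sox10 can bind, and the thyroid receptor core AGGTCA was searched as well, both on either strand. Sequences are from RefSeq (GRCm38.p6), at chr11:100574689-100574938 for Cnp and chr3:31149670-31149919 for Cldn11, both on the plus strand.
Cnp: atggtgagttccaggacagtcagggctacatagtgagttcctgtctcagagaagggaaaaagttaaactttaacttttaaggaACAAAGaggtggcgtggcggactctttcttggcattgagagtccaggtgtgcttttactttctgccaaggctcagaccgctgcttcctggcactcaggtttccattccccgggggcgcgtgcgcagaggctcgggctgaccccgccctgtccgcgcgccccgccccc
Cldn11: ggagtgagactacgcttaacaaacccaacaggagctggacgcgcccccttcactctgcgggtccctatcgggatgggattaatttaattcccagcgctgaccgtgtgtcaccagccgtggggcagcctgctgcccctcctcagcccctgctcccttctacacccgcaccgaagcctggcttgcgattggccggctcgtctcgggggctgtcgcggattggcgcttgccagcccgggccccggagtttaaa
The Cnp window held 1 ACAAAG and no AGGTCA, and the Cldn11 window held neither. ACAAAG was present in 16.5% and AGGTCA in 14.0% of 32851 mouse promoter windows of that length. Such a match is a string of letters and not a measured binding site.

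Olig1, Cnp and Mbp were highest on the same array, that of the untreated 24 h culture, and the T3 culture of the same hour did not share this. Olig1, a basic helix-loop-helix factor of the lineage, had signals of 109, 106, 126 and 96.6 with T3 at 6, 16, 24 and 48 h, against 82.1, 94.6, 682 and 103 without T3. The untreated 24 h culture stood 5.42-fold above the next highest array, and the other 7 arrays lay between 82.1 and 126. In log2 terms T3 over untreated was 0.41, 0.16, -2.44 and -0.09 at the 4 time points.

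Cnp, an enzyme of the myelin sheath that also marks oligodendrocytes before they myelinate, had signals of 211, 180.5, 153 and 209.8 with T3, against 190.0, 183, 631 and 264 without. Its untreated 24 h signal was 2.39-fold above the next highest array, and its T3 over untreated was 0.15, -0.02, -2.05 and -0.33 (log2). The second tested Cnp probe-set had 23.9, 26.4, 19.0 and 46.0 with T3, against 23.0, 33.1, 102 and 30.4 without, with its highest signal on the same array. The third, below the filter, had 13.3 with T3 at 24 h and 46.5 without, again its highest.

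Mbp, the myelin basic protein that holds the layers of the sheath together, had signals of 502, 213, 276 and 186 with T3 on its brightest probe-set, against 329, 156.5, 826 and 182 without. Both 6 h arrays were high as well, so that the untreated 24 h signal was above the other 7 arrays by less than 2-fold. T3 over untreated was 0.61, 0.44, -1.58 and 0.03 (log2).

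**Figure D1:**
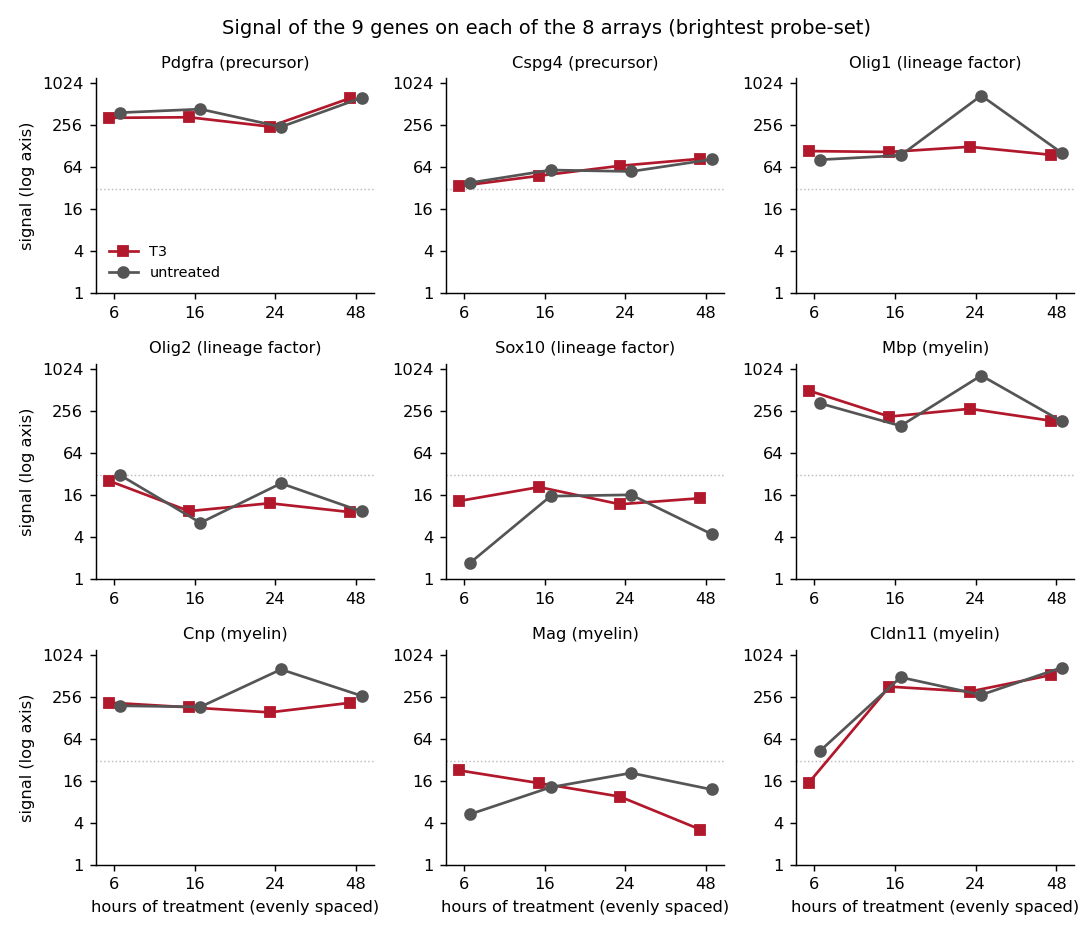
Signal of the brightest probe-set of each of the 9 genes on a log axis, with T3 (red squares) and without (grey circles) at 6, 16, 24 and 48 h, 1 array per point, the dotted line marking the filter at a signal of 31.0. Olig1, Mbp and Cnp peak at 682, 826 and 631 in the untreated 24 h culture, whereas Cldn11 is lowest on both 6 h arrays.

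The probe-sets of Mbp differed in course. Of its 7 tested probe-sets, 5 were highest on the untreated 24 h array, against 18.7% of the 18015 tested probe-sets. In these 5 the T3 signals at 24 h were 276, 209, 131, 60.5 and 60.9 and the untreated ones 826, 758, 493, 291 and 201. The other two were higher with T3 at 24 h. Probe-set 1425264_s_at had 146, 106, 121 and 82.5 with T3, against 165, 97.1, 78.8 and 92.8 without, and 1425263_a_at had 60.1, 42.1, 82.9 and 46.3 with T3, against 69.2, 40.0, 43.1 and 44.8 without. Their T3 over untreated at 24 h was 0.62 and 0.94 (log2), both short of 2-fold. The Mbp locus gives rise to several transcripts, and which of them each probe-set reads was not analysed here. In 4 of the 7 tested Mbp probe-sets the 4 arrays of 6 and 24 h were above all 4 arrays of 16 and 48 h, an order found in 15.1% of all tested probe-sets. The 7 probe-sets read the same gene on the same arrays, so neither count is one of independent members.

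**Figure D2:**
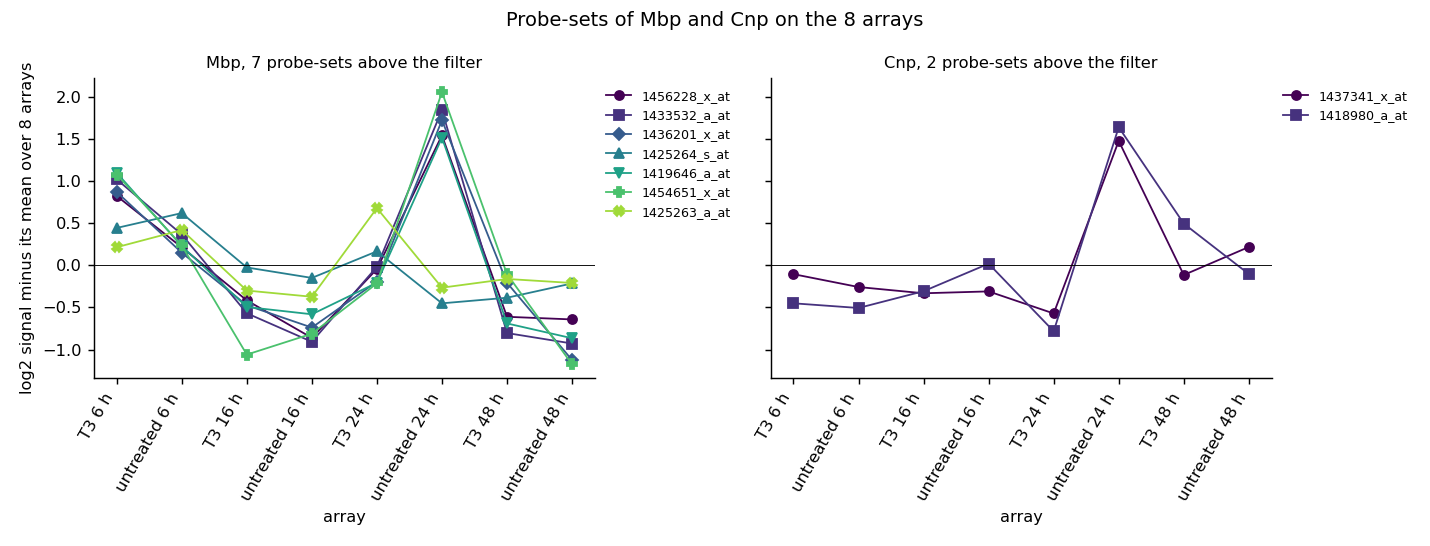
Log2 signal of each tested probe-set of Mbp (7, left) and Cnp (2, right) minus its own mean over the 8 arrays, with the T3 array left of the untreated array at each time point and 1 array per point. On the untreated 24 h array 5 Mbp and both Cnp probe-sets are highest, and 1425264_s_at and 1425263_a_at are not. Cnp probe-set 1418980_a_at passed the filter only through that array.

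At 24 h, 3 of the 6 tested genes (Olig1, Cnp and Mbp) were more than 2-fold lower with T3, against 5.16% of all tested probe-sets. So were 8 of the 15 tested probe-sets of the 6 genes, but most of these read Mbp and are not separate members. The second Cnp probe-set among them passed the filter only through its untreated 24 h signal. None of the 6 genes was more than 2-fold higher, against 3.67% (8.83% in either direction). At 6 h only Cldn11 passed 2-fold (lower with T3, background 0.328%, or 0.855% in either direction), and at 16 and 48 h none of the 6 did (backgrounds 0.433% higher and 0.305% lower at 16 h, 0.738% in all, and 0.833% higher and 0.344% lower at 48 h, 1.18% in all), although a dimmer Mbp probe-set was higher with T3 at 48 h (65.3 with T3, 31.1 without, log2 ratio 1.07). The median log2 ratio over all tested probe-sets was 0.006, -0.001, 0.05 and -0.003 at the 4 time points. With 1 array on each side these folds carry no test. The untreated 24 h array itself stood apart: 262 tested probe-sets (1.45%) were more than 2-fold above all other arrays there, against 0 to 21 on any other array. Of the 6 tested genes, Olig1 and Cnp were among them. In RNA from a whole culture, fewer cells of a type and less RNA per cell cannot be told apart.

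**Figure D3:**
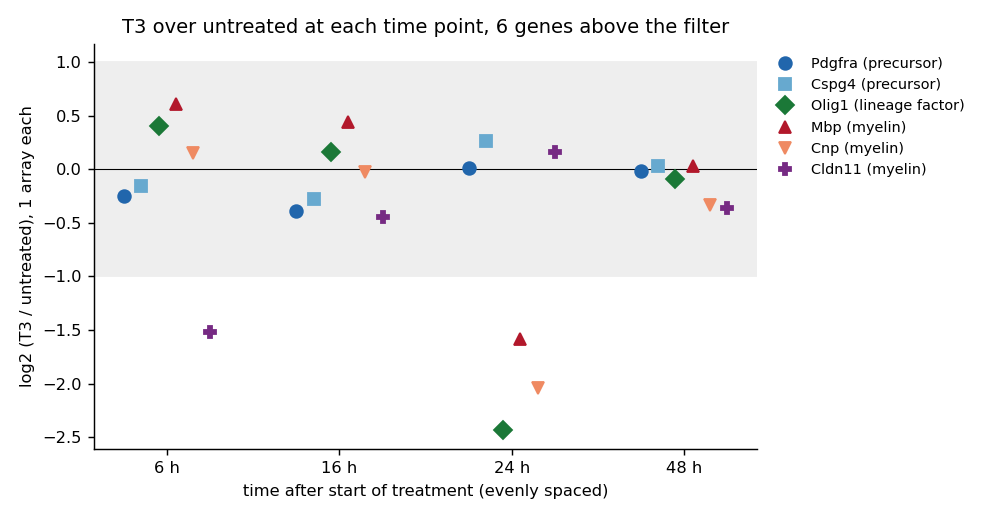
Log2 ratio of T3 over untreated signal at 6, 16, 24 and 48 h for the 6 tested genes, 1 array over 1 array at each point, with the grey band marking ratios within 2-fold. Outside the band lie Cldn11 at 6 h (-1.52) and Olig1 (-2.44), Cnp (-2.05) and Mbp (-1.58) at 24 h.

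Over the 4 pairs of arrays, none of the 6 genes passed the test of T3 against untreated cultures (limma with the time point as a block, Benjamini-Hochberg over 18015 probe-sets, background 0.0%). The mean log2 difference was -0.49 (SE 0.43, adjusted p = 0.83) for Olig1, -0.56 (SE 0.34, adjusted p = 0.815) for Cnp and -0.13 (SE 0.33, adjusted p = 0.947) for Mbp. It was -0.54 (SE 0.25, adjusted p = 0.815) for Cldn11, which was lower with T3 in 3 of 4 pairs. It was -0.16 (SE 0.11, adjusted p = 0.818) for Pdgfra and -0.03 (SE 0.16, adjusted p = 0.968) for Cspg4, against a median of 0.012 over all tested probe-sets. No probe-set of the array passed this limma test, while 985 had an unadjusted p below 0.05. Without the 24 h pair the difference was 0.16 for Olig1, 0.36 for Mbp and -0.07 for Cnp, and without the 6 h pair it was -0.22 for Cldn11, so each rested largely on 1 time point. As a check of the treatment, Klf9, a direct target of the hormone, had 3100, 2737, 3131 and 2268 with T3, against 1220, 1508, 1235 and 1498 without, higher in 4 of 4 pairs (log2 difference 1.04, SE 0.13, adjusted p = 0.306). Dbp, a circadian transcription factor, was also higher in 4 of 4 pairs, at 268, 596, 469 and 867 with T3, against 92.7, 219, 179.5 and 441.5 without, and Hr, a further target, was below the filter at 7.1 to 17.6.

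Pdgfra and Cspg4 did not take part in the 24 h peak. Pdgfra, the receptor for the mitogen that keeps precursors dividing, had 327, 333, 245 and 628 with T3, against 388, 436, 242 and 633 without. Its 4 T3 signals and 4 untreated signals covered nearly the same range, with the lowest at 24 h and the highest at 48 h on both sides, and T3 over untreated stayed between -0.39 and 0.02 (log2). Its second tested probe-set had 253, 127, 70.3 and 140.4 with T3, against 244, 146, 87.0 and 117 without, and was thus highest at 6 h instead of 48 h. The third was below the filter at 11.3 to 29.6.

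Cspg4, a surface proteoglycan of precursors and pericytes, had 34.3, 48.3, 67.1 and 84.7 with T3, against 38.3, 58.4, 55.7 and 82.9 without. Both 6 h arrays were lowest and both 48 h arrays highest. The second probe-set gave 32.4, 43.9, 48.7 and 57.2 with T3, against 36.6, 53.2, 45.1 and 67.8 without, in nearly the same order.

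Cldn11 took a course of its own among the myelin genes of the 9. It had 15.0, 358, 304.5 and 522 with T3, against 42.9, 487, 272 and 671 without. Both 6 h arrays lay far below the 6 later ones, and the T3 6 h array was the lowest of all, so that T3 over untreated was -1.52, -0.44, 0.16 and -0.36 (log2). With 32 added to every signal, which damps ratios of low signals, the ratio at 6 h was -0.67 and short of 2-fold. Both 6 h arrays were also lowest for 8 of 17 further tested genes of myelin and mature oligodendrocytes, against 19.4% of tested probe-sets.

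Change with time was tested as the slope of the time-point means on log2 of the hours, since the 2 cultures of a time point share a cell batch. None of the 6 genes passed (background 0.0% in limma, with 3409 probe-sets at an unadjusted p below 0.05). For each doubling of the hours the log2 signal of Cldn11 was higher by 1.48 (SE 0.34, adjusted p = 0.208) and that of Cspg4 by 0.40 (SE 0.12, adjusted p = 0.223). The slope was 0.19 for Pdgfra (SE 0.20, adjusted p = 0.597), 0.15 for Olig1 (SE 0.29, adjusted p = 0.774), 0.13 for Cnp (SE 0.14, adjusted p = 0.624) and -0.27 for Mbp (SE 0.25, adjusted p = 0.555), against a median of -0.033 over all tested probe-sets. Without the 24 h time point the Cldn11 slope was 1.49 and passed (adjusted p = 0.046), as did 1921 of 18015 probe-sets, but without the 6 h time point it was 0.40 (adjusted p = 1.0), so its size rested on the 6 h arrays. With the 8 arrays in the fit and the time point as a random block, Cldn11 missed the threshold (adjusted p = 0.0505), as did Cspg4 (adjusted p = 0.0985), while 1.75% of all probe-sets rose and 0.422% fell. Both 6 h arrays were lowest for Cspg4 and Cldn11 among the 6 genes, against 19.4% of tested probe-sets, and both 48 h arrays highest for Pdgfra, Cspg4 and Cldn11, against 16.9%.

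None of the 6 genes passed the test for a steady change of the T3 difference with the hours (limma on the 4 paired differences, adjusted p = 1 for each, background 0.0%, 245 probe-sets at an unadjusted p below 0.05). The slope of the difference was 0.44 for Cldn11 (SE 0.18, unadjusted p = 0.0507 in that limma fit) and was -0.01 without the 6 h pair.

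Olig2, Sox10 and Mag remained near the bottom of the signal range. Olig2, the partner of Olig1 that specifies the lineage, had 25.7, 9.4, 12.2 and 9.1 with T3, against 31.0, 6.4, 23.5 and 9.3 without, high at 6 h on both sides. Sox10, which drives myelin gene transcription, had 13.1, 20.8, 11.8 and 14.4 with T3 on its brightest probe-set, against 1.7, 15.4, 16.1 and 4.4 without. A second Sox10 probe-set had 4.7, 5.4, 4.7 and 7.4 with T3, against 3.2, 5.7, 34.2 and 6.0 without, and so was highest on the untreated 24 h array, and the third stayed at 1.2 to 3.6. Mag, the glycoprotein of myelin that faces the axon, had 22.6, 14.8, 9.5 and 3.2 with T3, against 5.3, 12.9, 20.7 and 12 without. Its T3 signal was lower at each later hour and its untreated signal was not, at levels too low for the filter.

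The myelin and precursor genes were compared as the mean centred log2 signal of Mbp, Cnp and Cldn11 minus that of Pdgfra and Cspg4 on each array, as a description without a test. With T3 this difference was -0.56, 0.22, 0.17 and -0.46 at 6, 16, 24 and 48 h, against -0.51, -0.11, 1.47 and -0.23 without. The untreated 24 h culture was the array where these 3 myelin genes stood furthest above Pdgfra and Cspg4, and T3 minus untreated was -1.30 at that hour. This order depended on the choice of precursor genes, since 6 other tested precursor genes had a mean centred level of -0.03 with T3 and 1.61 without at 24 h, and the myelin genes -0.02 with T3 and 1.14 without. The 10 tested astrocyte and Bergmann glia genes were at -0.05 with T3 and 1.39 without at that hour. Whether the 6 other precursor genes reported precursors or other cells was not tested. At 6 and 48 h the outcome depended on Cldn11: leaving it out (a choice made after seeing the data) turned the mean of the 6 h arrays to 0.53, against -0.53 with it, and moved that of the 48 h arrays to -0.94, against -0.34 with it. Without Cldn11 the difference was 0.82, -0.17, -0.12 and -1.02 with T3, against 0.24, -0.71, 1.84 and -0.86 without T3, lower at 48 h than at 6 h on both sides.

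Most other precursor genes were also highest in the untreated 24 h culture. Of 18 further precursor genes, 15 had a probe-set, 13 of which were highest on that array, against 16.2% of all 45037 probe-sets. Of 10 tested astrocyte and Bergmann glia genes 7 were highest there too. Of the precursor genes, all 6 that passed the filter were, against 18.7% of all tested probe-sets. At 24 h, 5 of these 6 were more than 2-fold lower with T3, against 5.16% of all tested probe-sets (median log2 ratio -1.69, against 0.05). The same number stood more than 2-fold above the other 7 arrays in the untreated 24 h culture, against 1.45% of all tested probe-sets. The chondroitin sulfate proteoglycan Bcan had a signal of 142 with T3 at 24 h and 659 without, Vcan, another such proteoglycan, 175 and 742, and Ptprz1, a phosphatase of glial progenitors, 117 and 372. Cacng4, a subunit of AMPA receptors, had 103 with T3 and 339 without, and the SOX factor Sox6 61.7 and 154. Gpr17, a receptor of precursors about to differentiate, was below the filter, with 2.5 with T3 and 124 without at 24 h and 1.2 to 9.6 on the other 6 arrays.

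Of 40 further genes of myelin and mature oligodendrocytes, 36 had a probe-set, 11 of which were highest on the untreated 24 h array, against 16.2% of all 45037 probe-sets. The filter was passed by 17, 4 of them highest there, a share near the 18.7% of all tested probe-sets. At 24 h 3 were more than 2-fold lower with T3, against 5.16% of all tested probe-sets, and the median over the 17 was -0.18. These 3 were Bcas1, a gene of oligodendrocytes at the start of myelination (173 with T3, 745 without), Plekhb1 (37.7 with T3, 160.5 without) and the Wnt effector Tcf7l2 (28.7 with T3, 58.9 without). Below the filter, the sheath protein Mog lay between 0.4 and 4.5, Opalin between 1.2 and 7.7, Mobp between 1.6 and 17.6 and Mal between 3.1 and 71.0. Among defining markers of the lineage, Olig2, Sox10, Mag and Mog were thus below the filter, while Olig1, Mbp and Cnp were above it. Apod, a lipid carrier made by oligodendrocytes and by fibroblasts, had 60.8, 902, 534 and 2008 with T3, against 119, 1101, 463 and 2266 without. It was the single member of this list to rise with time under the random block (slope 1.45, adjusted p = 0.044), against 1.75% of all tested probe-sets. In the fit of time-point means it did not pass (adjusted p = 0.208).

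**Figure D4:**
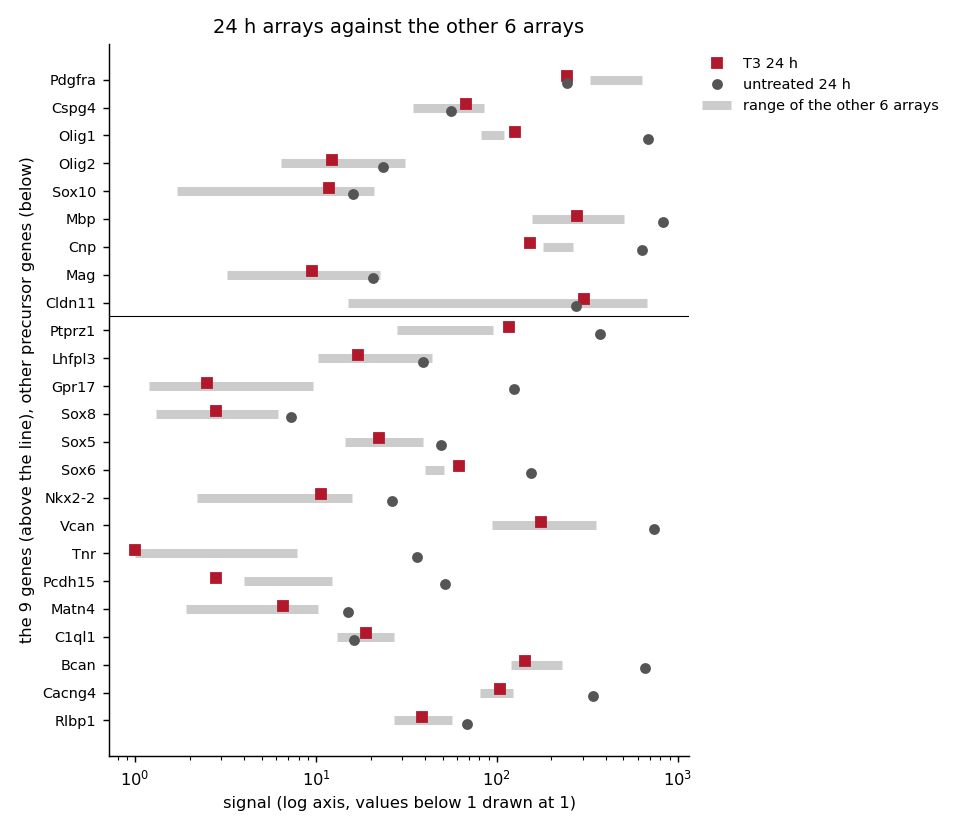
Signal at 24 h with T3 (red squares) and without (grey circles) for the 9 genes (above the line) and 15 further precursor genes (below it), on a log axis with values below 1 drawn at 1, and the grey bar showing the range of the other 6 arrays. The untreated point lies to the right of the bar for Olig1, Mbp and Cnp among the 9 genes and for 13 of the 15 precursor genes.

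Among 24 signals that act on oligodendrocyte development, 23 had a probe-set and 17 passed the filter. At 24 h Id4, a BMP-responsive inhibitor of differentiation, had 111 with T3 and 422 without, and Lingo1, a brake on myelination, 58.4 and 224. Lif, a cytokine that favours oligodendrocyte survival, was the 1 gene past 2-fold higher (26.7 with T3, 13.3 without, log2 ratio 1.00). Over all tested probe-sets 3.67% were past 2-fold higher and 5.16% lower at that hour. Hes5, a Notch target that holds progenitors undifferentiated, was below the filter, with 10.4 with T3 and 289 without at 24 h and 5.1 to 9.4 on the other 6 arrays. The median log2 ratio of the 17 at 24 h was -0.08. Bmp4, which steers progenitors towards astrocytes, was the single gene of this list to rise with time under the random block (slope 1.01, adjusted p = 0.044). Over all tested probe-sets 1.75% rose in that fit. In the fit of time-point means Bmp4 did not pass (adjusted p = 0.208).

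Markers of other cells moved with these results. Of 11 astrocyte and Bergmann glia genes all had a probe-set and 10 passed the filter. Of these, 6 were more than 2-fold lower with T3 at 24 h (median -1.52), against 5.16% of all tested probe-sets. The summed signal of the 11 genes was 5147 with T3 at 24 h and 9737 without, and ran from 3102 to 5315 over the 7 arrays other than the untreated 24 h array. The water channel Aqp4 had 45.8 with T3 at 24 h and 1054 without, and Aldh1l1, a folate enzyme of astrocytes, 73.0 and 552. The glutamate transporters Slc1a3 and Slc1a2 had 112.5 and 41.6 with T3 and 639 and 144 without, and the glycolytic enzyme Aldoc 243 and 882, so these astrocyte genes were high on the array where Olig1, Cnp and Mbp were. Their part in those results was not tested. Gja1 (2868 with T3, 2595 without) and Sox9 (55.0 with T3, 54.0 without) differed little at 24 h. Gdf10, a BMP-family ligand of Bergmann glia, was instead higher with T3 at 24 h, short of 2-fold (196 with T3, 98.9 without). It was past 2-fold higher with T3 at 48 h (545 with T3, 198 without).

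The sample titles name neurons without a type. The sum over 6 granule cell genes (Atoh1, Pax6, Neurod1, Barhl1, Mki67 and Rbfox3) ran from 1576 to 7429 with T3 and from 1124 to 7834 without. It was lowest at 48 h on both sides. At 24 h it was 4133 with T3 and 6027 without, with a median log2 ratio of -0.79 over the 6. Atoh1, the factor of granule cell precursors, had 32.8 with T3 and 270.1 without at that hour, and Barhl1, a homeobox factor of the granule lineage, 67.5 and 292, both higher in the untreated culture. Barhl1 was higher with T3 at 16 h (144 with T3, 65.9 without), as was Pax6, a factor of granule cells, at 48 h (136 with T3, 64.2 without). The part of granule cells in the results above was not tested.

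Fibroblast genes of the meninges, 6 of 6 above the filter, were lowest on both 6 h arrays in every case, as Cldn11 and Cspg4 were. That order was found in 19.4% of all tested probe-sets. The summed signal of the 6 was 1433, 8382, 8693 and 13151 with T3, against 1895, 9734, 6311 and 14226 without. Under the random block 5 of the 6 rose with time (adjusted p of 0.039 to 0.0492), against 1.75% of all tested probe-sets. None of the 6 passed in the fit of time-point means (adjusted p = 0.208 for each). The collagen-binding proteoglycan Lum had 36.6 with T3 at 6 h and 78.4 without, and Dcn, a related proteoglycan, 298 and 603, so at 6 h both were lower with T3, as was Cldn11. Over the 6 fibroblast genes the log2 ratio at 6 h ran from -1.10 to 0.51 (median -0.73). Igf2 was higher with T3 (647 with T3, 454 without). Of 6 pericyte genes all had a probe-set and 3 passed the filter (Pdgfrb, Rgs5 and Acta2), and the sum over the 6 was 510, 816, 1668 and 2292 with T3, against 537.5, 908, 815 and 1981 without. Past 2-fold higher with T3 were the receptor Pdgfrb (373 with T3, 185 without) and the smooth muscle actin Acta2 (1202 with T3, 543 without) at 24 h, and Rgs5 (251 with T3, 123 without) at 48 h. The 7 microglia genes, all with a probe-set and 4 above the filter, summed to 131 with T3 and 143.5 without at 24 h and to 1069.9 and 917 at 48 h. This sum was low and high at the same hours as the brightest Pdgfra probe-set, whereas the second tested Pdgfra probe-set was highest at 6 h (253 with T3, 244 without). Past 2-fold lower with T3 at 24 h were C1qa (3.5 with T3, 13.9 without) and Cx3cr1 (4.7 with T3, 10.5 without), both at low signal. Tmem119 was instead lowest at 6 h (11.4 with T3, 15.4 without). It rose with time under the random block (adjusted p = 0.0474), as did 1.75% of all tested probe-sets, but not in the fit of time-point means (adjusted p = 0.211). What fibroblasts, pericytes or microglia contributed to Cldn11, Cspg4 and Pdgfra was not tested. Of 6 Schwann cell genes 4 had a probe-set and 1 passed the filter, with sums of 52.8 to 120.5 with T3 and 37.0 to 94.3 without, and the 1 tested gene, Egr2, had 60.3 with T3 and 29.7 without at 24 h. Of 6 genes of GABAergic neurons 5 had a probe-set and 2 passed, with sums of 113 to 583.5 with T3 and 84.5 to 771 without, the highest being the untreated 24 h culture. Gad1, which makes GABA, had 49.0 with T3 and 467 without at 24 h. Lhx1, the other tested gene, was instead highest in the untreated 6 h culture (390, against 152 in the untreated 24 h culture). The mean centred level of these 2 genes was also highest at untreated 6 h (1.66, against 1.44 at untreated 24 h). Lhx1 fell with time under the random block (adjusted p = 0.0474), as did 0.422% of all tested probe-sets, but not in the fit of time-point means (adjusted p = 0.208).

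**Figure D5:**
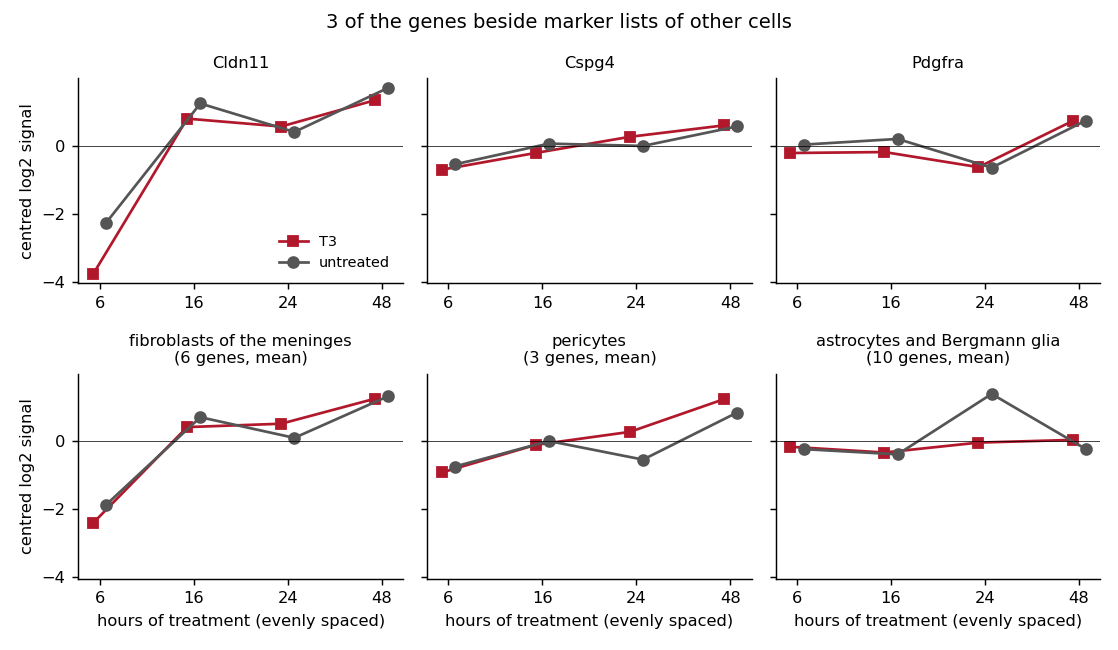
Centred log2 signal of Cldn11, Cspg4 and Pdgfra (above) and the mean over the tested genes of 3 marker lists (below), with T3 (red squares) and without (grey circles), 1 array per point. Cldn11 and the 6 fibroblast genes are lowest at 6 h on both sides, and the 10 astrocyte genes reach 1.39 in the untreated 24 h culture.

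The genes whose course was most like each of the 6 were found by Pearson's correlation of log2 signal over the 8 arrays among 10194 genes. The arrays share cell batches in pairs, and the values only describe likeness. For Olig1 they were Fabp7, a fatty acid carrier of radial and Bergmann glia (r = 0.987), Fbxo2 (r = 0.978) and Cacng4 (r = 0.975). For Cnp they were Cyp26b1, an enzyme that degrades retinoic acid (r = 0.996), Btbd2 and Fjx1 (r = 0.977 each). For Mbp they were Hnrnph2 (r = 0.981), 2610306M01Rik (r = 0.978) and Nfasc, an adhesion protein of nodes of Ranvier (r = 0.977). Of these, Fjx1 and Nfasc passed the filter only through the untreated 24 h array (signals of 97.4 and 197), where Cnp and Mbp were also highest. Cldn11 was most like Efemp1 (r = 0.997), an extracellular matrix protein, Cd248 (r = 0.994) and Moxd1 (r = 0.993). Cspg4 was most like Thbs2 (r = 0.989), Dram1 (r = 0.986) and Slc23a2 (r = 0.985), and Pdgfra like Plxnd1 (r = 0.992), Apold1 (r = 0.974) and Ezh1 (r = 0.97). Within the 6 genes themselves r was 0.9 between Olig1 and Cnp, 0.758 between Olig1 and Mbp and 0.877 between Cspg4 and Cldn11, but -0.557 between the myelin genes Mbp and Cldn11 and 0.491 between the precursor genes Pdgfra and Cspg4.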

How the data were processed

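The table the authors deposited holds signal intensity on a linear scale for every probe-set of each array, made with GCOS and MAS5 according to the submitters' processing notes. The authors scaled the arrays, and without the top and bottom 2% of probe-sets the mean was 100.0 on each. Of the probe-sets, 34945 had 1 gene symbol in GEO's platform annotation, 932 several and 9160 none, and 64 control probe-sets were left out. Signals below 1 were set to 1 and log2 was taken, and probe-sets at or above the 60th percentile of mean log2 signal were kept. limma 3.58.1 (R 4.3.3, variance trend) tested T3 against untreated with the time point as a block, the slope of time-point means on log2 hours, and the slope of paired differences, at an adjusted p of 0.05 over 18015 probe-sets. Ratios at single time points were counted past 2-fold with no test. A gene was represented by its brightest probe-set, and its other probe-sets were given too. Named were all probe-sets of the 9 genes, genes of the lists past 2-fold or past a fit (at most 5 per list, direction and time), and the 3 genes most like each tested gene. Also named were Klf9, Dbp and Hr as T3 response genes, Gja1 and Sox9, which met neither criterion, and the full granule cell list. Gpr17, Hes5, Mog, Opalin, Mobp and Mal, below the filter, were named after their values were seen. The genes and lists were chosen with earlier results of these data known. Alternatives were leave-one-out over time points, an offset, 2 other normalizations, other filters and fold thresholds, the mean of a gene's probe-sets, and other blocks. The scripts were first run on simulated data with known answers. With 1 array per condition, the number of arrays limits the precision. In the main fits, p-values for T3 and for the slope of paired differences measure the spread between 4 pairs, each of 1 cell batch. Those for change with time measure the spread of the 4 time-point means around a line, or of the arrays in the fit with a random block.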

Additional observations from a re-analysis of the deposited data

Results flagged for a closer look

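Mag stood out because its T3 culture was higher than the untreated one at 6 h and lower at 24 and 48 h by more than 2-fold each. The log2 ratio of T3 over untreated was 2.09 at 6 h, -1.12 at 24 h and -1.91 at 48 h, with 1 array on each side, and no test compared single time points. A steady change of the T3 difference with log2 hours was tested for Mag only in the limma fit without a filter, and it did not pass (slope -1.38, SE 0.27, unadjusted p = 0.0065, adjusted p = 1). All 8 signals of Mag lay between 3.2 and 22.6, below the filter at 31.0.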

How the results depend on the processing

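The labels give every culture replicate number 1, so the only pairing is that of a time point, which the fit of T3 used as a block. No other paired analysis was possible because no condition had a second array. Of 91 values or counts that answer a comparison, recomputed under the alternatives, 53 were counts of 0 that stayed 0, 29 were within 1.5 times and 9 were not. The count at 24 h was 3, or 2 at 3-fold. Without 1 time point in turn, the members passing for change with time numbered 0 to 1 (Cldn11, without 24 h), and with the 8 arrays as independent 2 (Cldn11, adjusted p = 0.0153, and Cspg4, adjusted p = 0.016, limma). Over all probe-sets 0 passed for change with time, 392 with the random block, 1921 without 24 h and 3458 with the arrays as independent, and for T3 0 passed, or 2 without 24 h. The number of members past 2-fold at 6 h was 1, and 0 with 32 added to every signal or at 3-fold. Myelin minus precursor was -0.53 at 6 h and -0.34 at 48 h, and -0.86 and -0.05 with the mean of each gene's probe-sets. Without Cldn11, chosen after seeing the data, it was 0.53 at 6 h and -0.94 at 48 h, and T3 minus untreated at 24 h was -1.96 in place of -1.30. Directions turned for the T3 effect of Cspg4 (-0.13 to 0.05 when a time point was left out), Olig1 (-0.79 to 0.16) and Mbp (-0.37 to 0.36), for the slope of Pdgfra (-0.21 to 0.56, and -0.1 with the mean of its probe-sets) and Olig1 (-0.17 to 0.68), and for the slope of the T3 difference of Olig1 (-1.19 to 0.11), Cnp (-0.92 to 0.01) and Cldn11 (-0.01 to 0.82). The Mbp ratio at 24 h was 0.62 and 0.94 on 2 of its 6 other tested probe-sets and -2.27 to -1.72 on the other 4. Without 24 h the T3 effect of Cnp was -0.07, and without 6 h that of Cldn11 was -0.22 and its slope 0.40. The cause was not tested. A signal near the background has no reliable ratio, which bears on Olig2, Sox10, Mag and the 6 h signals of Cldn11.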
